A study of Mus musculus with 21 samples.

Results

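A set of 396 intergenic H3K36me3 intervals was drawn from the peak lists of wild-type (WT) C2C12 cells, mouse myoblasts kept as a line that can turn into multinucleate muscle fibres. The members were chosen by the WT peak calls: bases of chromosomes 1 to 19 covered in both libraries of at least 1 WT group, at least 5 kb from every RefSeq gene body of any biotype, merged and kept at 500 bp or more. They spanned 552.6 kb, or 0.291% of the 189.8 Mb of WT interval bases, where 54039 intervals of at least 500 bp were covered in both libraries of some WT group. For comparison, 52631 intervals were drawn in the same way inside gene bodies and are called genic here. The series profiled H3K36me3 by chromatin immunoprecipitation and sequencing (ChIP-seq) in WT cells and in a pair of Setd2 knockout (KO) lines, called KO line 1 and KO line 2 here. Samples were taken on day 0 and, with or without methionine restriction, on days 1 and 5, with unrestricted cells called control below. WT groups had 2 libraries each and each KO line had 1 library per condition, so KO values have no replicate within a line. The labels do not say how the lines were made, whether each is 1 clone, or whether WT replicates came from separate cultures. The p-values therefore measure the spread between these libraries. WT and the same KO lines recur in every condition, so p-values of WT against KO cover libraries and not lines.

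H3K36me3 (histone H3 with 3 methyl groups on lysine 36) is laid down by SETD2, which travels with elongating RNA polymerase II. The mark therefore usually lies over the bodies of transcribed genes and grows towards their 3′ ends. MicroRNA hairpins are cut from longer primary transcripts, which can extend well beyond the annotated hairpin.

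The lists of each library were called by the authors, and a value below is the percent of an interval's bases that fall inside a library's peaks. Cover says how much of an interval was called, not how much of the mark it carried. The WT lists held 63423 to 87398 peaks and the KO lists 127 to 64530, and the KO lists of restricted day 1 stood apart, with 791 peaks in line 1 and 127 in line 2. Read depth is unknown from peak lists. In the bulk chromatin of a culture, fewer cells with a peak and less of the mark per cell cannot be told apart. Of the muscle markers, Myog, a myogenic factor of differentiating cells, was covered to 70.6% to 93.4% in the 4 control WT lists. It had 0% at day 0 and in all 4 restricted lists. The myoblast factors Myod1 and Myf5 were also at 0% in all 4 restricted lists. Other muscle genes kept some cover there, with 34.5% to 43.9% for Des and 0% to 19.8% for Acta1 and Ckm. Myh3 had 0% in the restricted day 1 lists and 56.7% and 57.8% in those of day 5. The mean cover of 7 muscle genes was 21.6% in both WT lists at day 0, 42.5% to 73.0% in the control WT lists and 4.93% to 17.3% in the restricted ones, and that of the mesenchymal genes Vim and Col1a2 was 88.4% to 96.4% at day 0 and in control medium and 61.2% to 69.7% under restriction. In KO lists the muscle genes had a mean cover of 0% to 10.3%. Vim and Col1a2 had 85.5% to 94.5% in KO line 1 except under day 1 restriction, at 7.57%, and 0% in all 5 lists of KO line 2. Both marker lists thus moved with restriction in WT, the muscle genes also with genotype and the mesenchymal genes with the KO line, and their part in the results below was not tested. WT lists covered 0% of Ptprc, Cd3e, Alb, Gfap, Nanog and Pecam1, markers of other cell types. Peaks covered 45.6% to 82.8% of the Setd2 gene in WT lists and 0% to 24.0% in KO lists, which does not check the deletion itself.

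The 2 widest intervals, and 3 of the 8 widest, lay within 30 kb of microRNA hairpins. Of the member bases, 15.3% were within 30 kb of a microRNA hairpin, against 0.624% of all bases at least 5 kb from genes, and without the 2 widest members the share was 8.31%. The bases compared were not matched to the members' distance from genes, and 272 of the 396 members lay within 10 kb of a gene. Hairpins themselves count as genes. The share involved 30 of the 396 members and 23 of the 919 hairpin genes on chromosomes 1 to 19. No test was run on this share, and the gap of 30 kb was chosen after the data were seen. The mature microRNAs of the main loci are shown because the intervals flank their hairpins. Sequences and positions are those of RefSeq on GRCm38.p6, written 5′ to 3′, with the seed (bases 2 to 8) in capitals. Members of the let-7 family, known for their rise during differentiation, share a seed:
mmu-let-7b-5p: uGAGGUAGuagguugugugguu
mmu-let-7c-5p: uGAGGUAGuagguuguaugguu
mmu-let-7i-5p: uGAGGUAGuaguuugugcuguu
The miR-29 family, known for repressing collagen mRNAs, shares another:
mmu-miR-29a-3p: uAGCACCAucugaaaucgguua
mmu-miR-29b-3p: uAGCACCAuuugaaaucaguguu
The miR-30 family shares a further seed:
mmu-miR-30a-5p: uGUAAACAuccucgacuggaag
mmu-miR-30c-5p: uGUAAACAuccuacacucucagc
Further hairpins beside members are not shown, and the others listed carry seeds of their own:
mmu-miR-23a-3p: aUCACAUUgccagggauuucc
mmu-miR-27a-3p: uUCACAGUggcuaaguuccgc
mmu-miR-24-3p: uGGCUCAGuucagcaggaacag
mmu-miR-193a-3p: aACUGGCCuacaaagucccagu
mmu-miR-365-3p: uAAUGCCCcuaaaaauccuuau

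The widest member, chr15:85671942-85698772 on GRCm38, was 26831 bp wide and ended 5 kb before Lncppara, the long noncoding RNA gene that overlaps Mirlet7c-2. It lay upstream of the hairpins of Mirlet7c-2 and Mirlet7b, at 7.83 and 8.55 kb. At day 0 both WT libraries covered 100% of it. At day 1 it was covered to 97.3% and 99.8% in control medium and to 35.6% and 30.0% under restriction. At day 5 the values were 97.7% and 95.6% in control medium and 28.6% and 27.4% under restriction. The control and restricted libraries did not overlap on either day. In KO line 1 the interval was covered to 63.2% at day 0, to 64.0% in day 1 control medium, and to 80.0% and 82.2% at day 5 without and with restriction. It had 0% in the restricted day 1 list of KO line 1 and in all 5 lists of KO line 2. Farther upstream, 3 narrower members of 607 to 2857 bp had 0% in all 4 restricted WT lists.

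The next widest member, chr6:31068094-31088367, was 20274 bp wide and lay 5 kb upstream of Mir29b-1, with Mir29a beyond it. Its cover was 100% in both WT libraries at day 0. At day 1 it was 97.5% and 99.7% in control medium against 6.42% and 13.3% under restriction. At day 5 it was 97.9% and 96.2% in control medium against 11.4% and 13.7% under restriction. Restricted libraries thus kept peaks on a small part of it on both days. The companion member downstream of Mir29a, chr6:31053925-31057659, was covered to 85.3% to 100% at day 0 and in control medium and to 49.6% to 77.3% under restriction. In KO line 1 the upstream member reached 99.1% in day 5 control medium and 83.6% under restriction at day 5, 27.5% at day 0, and 11.3% and 0% at day 1 in control and restricted medium. KO line 2 had no peak on either member.

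**Figure D1:**
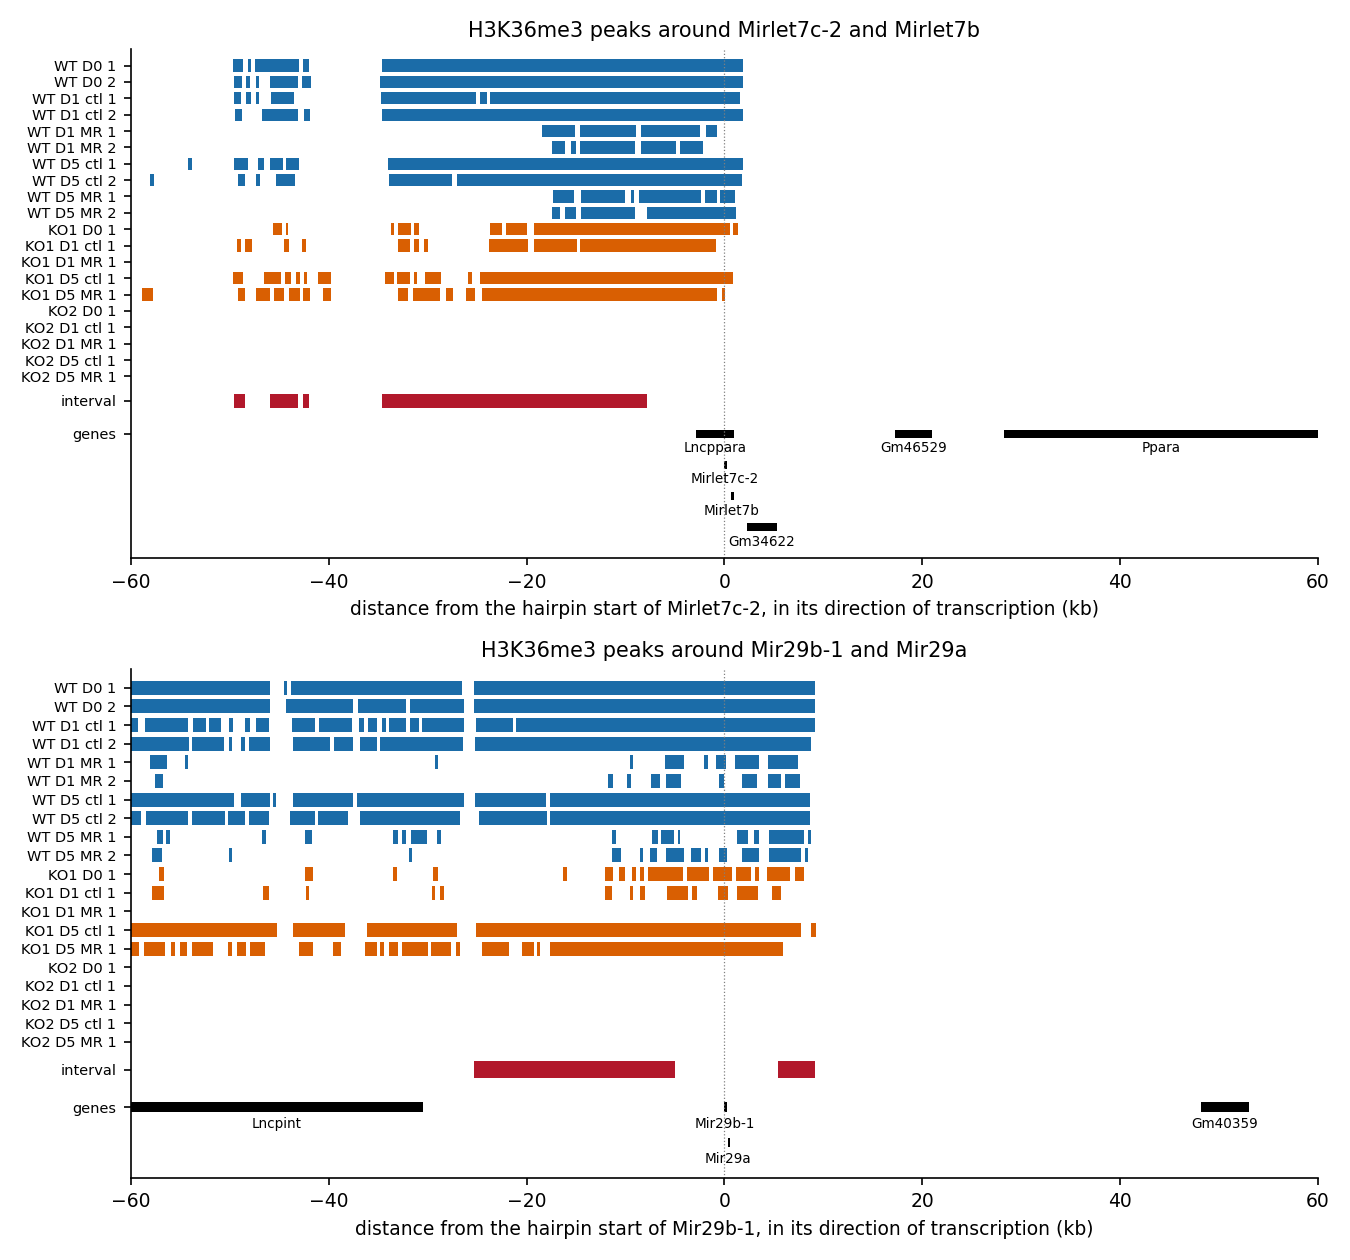
Peaks of all 20 libraries within 60 kb of the hairpin starts of Mirlet7c-2 (top) and Mir29b-1 (bottom), as distance in kb along the direction of transcription, with WT in blue, KO line 1 in orange, KO line 2 in purple, the intergenic intervals in red and gene bodies in black. Peaks of WT at day 0 and in control medium run on from the intervals across the hairpins, restricted WT lists keep shorter pieces, and KO line 2 has no peak in either window.

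At the other microRNA loci, named after their values were seen, the member beside Mir365-2 (chr11:79731512-79737932, 6421 bp) was covered to 94.8% to 100% in the 6 WT libraries at day 0 and in control medium. It was covered to 52.9% and 15.1% in the restricted libraries of day 1, and to 25.8% and 25.2% in those of day 5. The member between Mir193a and Mir365-2 (chr11:79717035-79721399) and the member 5 kb upstream of Mir23a, Mir27a and Mir24-2 (chr8:84201182-84203517) had 0% in all 4 restricted WT libraries. In the 6 other WT libraries these 2 members were covered to 72.0% to 100% and 55.0% to 100%. In KO line 1 the Mir23a member was covered to 80.0% at day 0, to 28.8% and 0% at day 1 in control and restricted medium, and to 100% in both day 5 lists, and it had 0% in KO line 2. The members between Mir30a and Mir30c-2 overlapped between media at day 1: the wider (chr1:23280469-23283003) was covered to 56.8% and 20.5% under restriction at day 1 against 28.0% and 56.5% in control medium. At day 5 its values did not overlap, at 21.3% and 17.99% against 60.4% and 57.4%. The member 18.9 kb downstream of Mir30c-2 (chr1:23310713-23312081) went the other way at day 1. It was covered to 100% and 86.6% under restriction against 77.3% and 36.6% in control medium. At day 5 its values overlapped, at 61.3% and 22.9% against 78.0% and 0%. A 614 bp member 6.96 kb downstream of Mir34a had peaks in the restricted day 5 WT libraries, at 100% in both, and 0% in every other list.

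Members differed widely in width and in distance from genes. Widths ran from 500 to 26831 bp with a median of 907.5 bp, against a median of 1437 bp for the genic intervals. Distances to the nearest gene ran from 5 to 262.4 kb with a median of 6.98 kb. In all, 272 members lay within 10 kb of a gene, 79 at 10 to 20 kb, 23 at 20 to 50 kb, 15 at 50 to 100 kb and 7 farther away, and 104 ended exactly at the 5 kb limit. The limits decide which pieces count: the narrowest members measured 500, 500 and 501 bp, and the widest pieces left out measured 498 bp, among 453 pieces under the width limit. Joined at gaps of up to 10 kb, the members formed 246 loci, of which 161 held 1 member, and the 10 largest loci held 23.3% of the member bases. The nearest gene was protein-coding for 291 members, a long noncoding RNA gene for 63 and a microRNA gene for 14.

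The intervals lay mostly beyond the 3′ ends of genes. Of 283 members whose nearest gene had a strand in the promoter or microRNA tables, 228 lay downstream and 55 upstream, or 80.6% downstream. For members beside protein-coding genes the count was 188 of 220. By bases, the downstream side held 75.6% of the stranded member bases and 52.8% of the stranded intergenic span. The surplus was near genes: at 5 to 10 kb 173 of 203 stranded members were downstream, at 10 to 20 kb 42 of 54, at 20 to 50 kb 8 of 16, and farther out 5 of 10. Of the 104 members cut at the 5 kb limit, 80 were stranded and 70 of those were downstream. Strand was known for 26667 of 47042 genes, and members beside the others were left out.

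The side of the gene was then compared between WT and KO over all intergenic peak bases of each list, a test that was added after the data were seen. In WT lists 74.1% to 83.6% of these bases were downstream, and in KO lists 53.9% to 73.1%. The highest KO value came from the restricted day 1 list of line 2, which held 2.92 kb of intergenic peaks, and the next highest was 65.1%. Averaged within condition, WT lists exceeded KO lists by 19.8 points (exact permutation test within condition, two-sided, p = 0.000257, the smallest it can give, Benjamini-Hochberg adjusted p = 0.00141 over 11 tests). Because the same lines recur in every condition, this p covers libraries and not lines. Within 10 kb of genes the groups separated fully, at 81.6% to 88.3% in WT and 46.9% to 61.7% in KO. The genome span itself held 50.7% there. From 10 kb outward the WT lists held 55.8% to 73.7% and the KO lists 54.3% to 80.0%, and the difference fell to 4.73 points (exact permutation p = 0.0543). With peaks of −log10 q of at least 3 the overall difference was 8.28 points (exact permutation p = 0.0319).

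**Figure D2:**
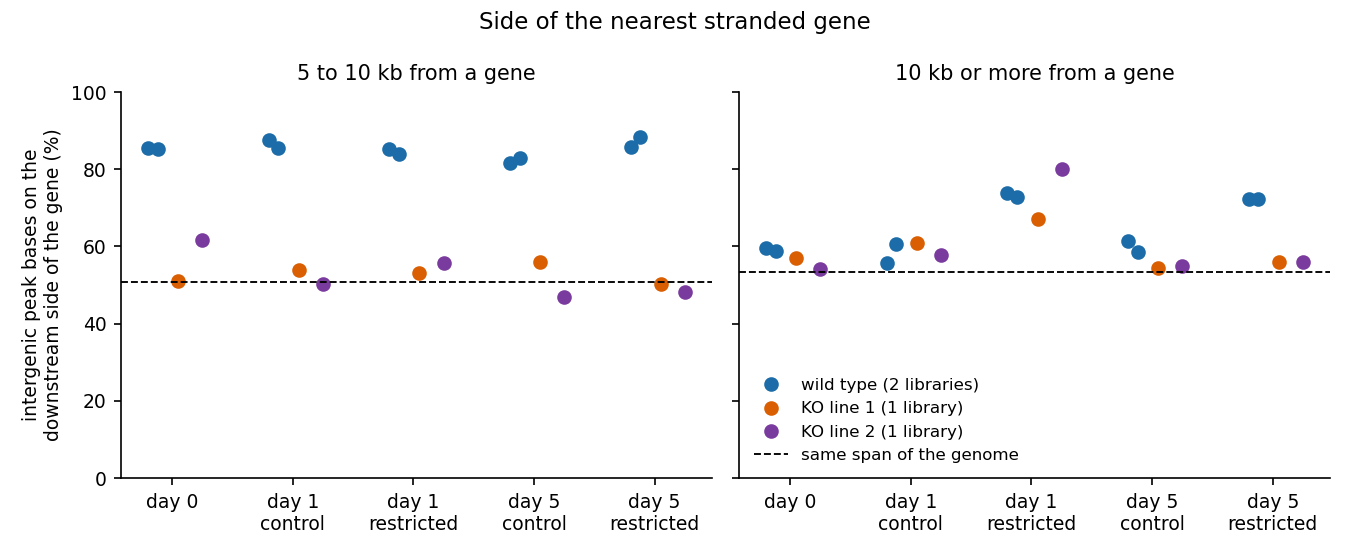
Percent of intergenic peak bases on the downstream side of the nearest stranded gene in each of 20 libraries, at 5 to 10 kb from genes (left) and from 10 kb outward (right), with the same share of the genome span as a dashed line. At 5 to 10 kb all WT libraries lie above 80% and all KO libraries lie between 46.9% and 61.7%, while farther out the points of WT and KO overlap.

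The WT groups that carried the members are a description, since WT calls chose them. A group counts here where both of its libraries cover at least 1 shared base of the interval. By that count 295 members were present at day 0 (74.5%, beside 77.1% of all WT intervals). At day 1 there were 239 in control medium (60.4%, beside 66.8%) and 141 under restriction (35.6%, beside 51.9%). At day 5 there were 289 in control medium (73%, beside 82.6%) and 145 under restriction (36.6%, beside 56.3%). All 5 groups shared 74 members (18.7%, beside 36.2% of all WT intervals). A wide interval is counted in more groups by this rule, and the median width was 1743 bp for these and 709 bp for the 102 members of 1 group. Day 5 control medium alone held 60 members (15.2%, beside 10.9% of all WT intervals) and day 0 alone held 35 (8.84%, beside 3.67%). In neither restricted group were 203 members (51.3%, beside 34.5%), of which 54 were present in all 3 other groups (13.6%, beside 9.34%). Restricted groups alone held 12 (3.03%, beside 2.11%).

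**Figure D3:**
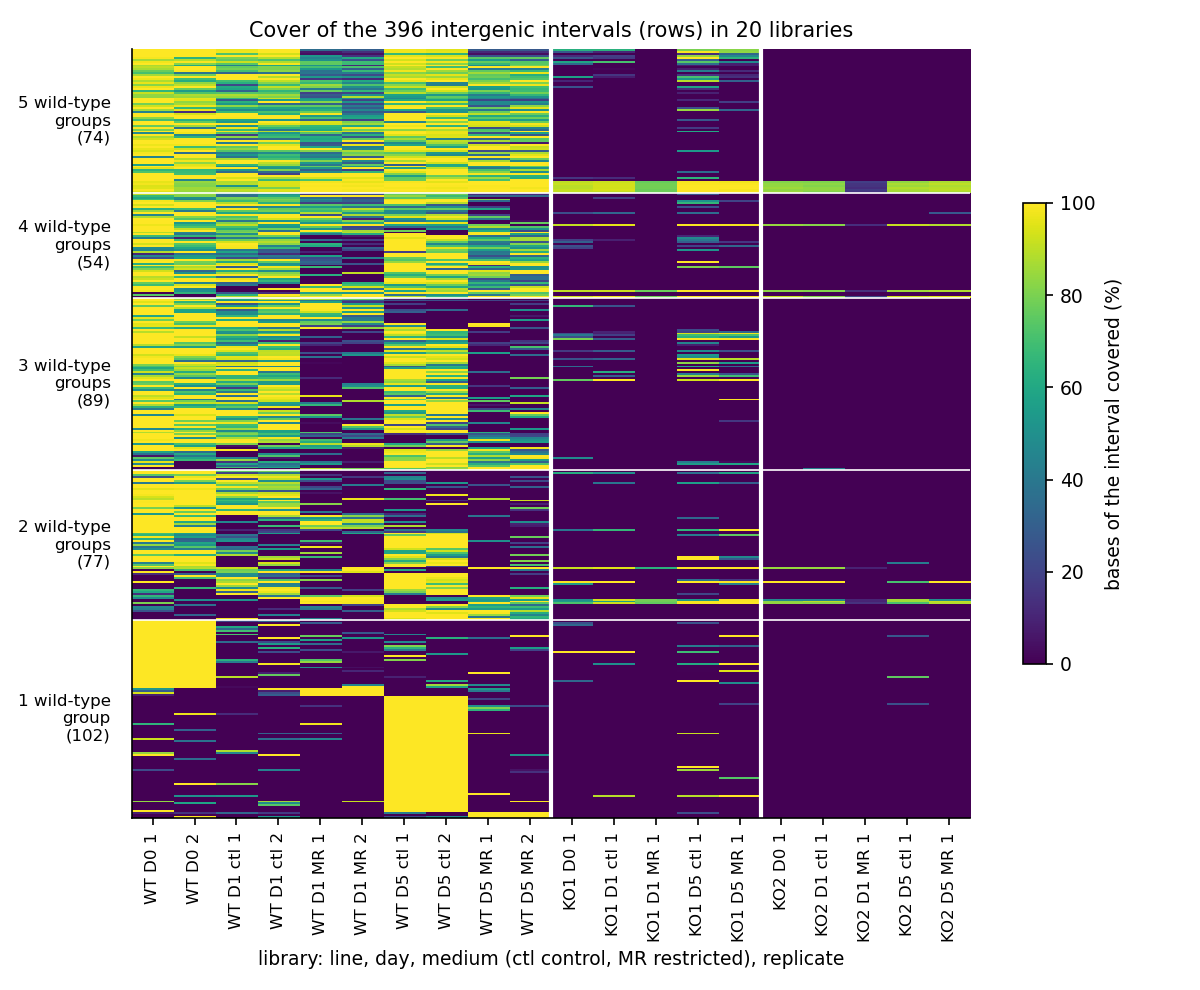
Percent of bases covered for each of the 396 members (rows, grouped by the number of WT groups that hold them and then by group) in 20 libraries (columns: 10 WT, 5 of KO line 1, 5 of KO line 2). The blocks at the bottom are the members of day 0 alone (35) and day 5 control alone (60), and the thin bright rows across most KO columns are narrow members covered to 50% in up to 9 of the 10 KO lists.

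Among the widest members beside protein-coding genes, the interval downstream of Ect2, a gene needed for cytokinesis, was limited to the first days. That member (chr3:27084504-27091220, 6717 bp) was covered to 100% and 85.9% at day 0 and to 59.98% and 89.6% at day 1 in control medium. Under restriction at day 1 it kept 87.3% and 76.7%. At day 5 it was covered to 9.80% and 5.70% in control medium and to 0% in both restricted libraries, so the days did not overlap. All 10 KO lists had 0%. The 5 members nearest to Fer1l6, a ferlin gene, and the 3 beside Ect2 were likewise counted in neither day 5 group.

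Other members were limited to day 5 or held at all times. Gm33624, a long noncoding RNA gene, was nearest to 8 members of a locus of 10, and all 10 were present in day 5 control medium alone. In other libraries this locus had peaks on 2 of the Gm33624 members, at 80.5% of a 1443 bp member in the first restricted day 5 library and at 31.5% of a 952 bp member in the second day 0 library. The 5 members nearest to Gm23195, a small nucleolar RNA gene, were also present in day 5 control medium alone. The 4 widest members of day 5 control alone were 2070 to 2221 bp wide, 2 of them downstream of the G-protein coupled receptor gene Gpr142, 1 upstream of Pter and 1 beside Gm33624. Each had 100% in both day 5 control libraries and 0% at day 0 and day 1. Downstream of Itm2b, which encodes a transmembrane protein, and towards the cell cycle gene Rb1, all 5 members of a locus were present in day 5 control medium. Its widest member (chr14:73351295-73357225) was covered to 100% and 99.1% there, to 74.1% and 75.8% under restriction at day 5, and to 43.6% to 98.5% at day 0 and day 1. In KO line 1 the Itm2b member was covered to 26.2% at day 0, to 16.96% and 0% at day 1 in control and restricted medium, and to 100% and 64.1% at day 5, and it had 0% in all 5 lists of KO line 2.

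Among the widest members of day 0 alone were those beside Slc16a11, a monocarboxylate transporter family gene, Ugcg, the glucosylceramide synthase gene, and Slc17a5, the lysosomal sialic acid transporter gene. The Ugcg member had 99.2% in the second control library of day 1 and 0% in the first, and the Slc17a5 member had 59.9% in the first and 0% in the second. A member absent from a group by this count can thus have peaks in 1 of its libraries. The 5 members nearest to Plpp2, a lipid phosphatase gene, were present at day 0 and at day 1 under restriction, 3 of them also at day 1 in control medium. The 6 members downstream of Scaf8, which encodes a protein that binds the RNA polymerase II tail, were present in day 5 control medium, 5 of them also at day 0.

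Of the remaining widest members, the Isx interval (chr8:74825200-74832956, 40.2 kb from this gut homeobox gene) was covered to 65.4% to 100% at day 0 and in control medium. It was covered to 3.73% to 4.50% in the 4 restricted libraries. The member beside Rnf4, a SUMO-targeted ubiquitin ligase gene, had 72.4% to 93.3% against 26.3% to 54.2%. The member nearest to the pseudogene Gm9027 had 87.8% to 99.6% against 68.9% to 76.0%. Restricted libraries were thus lower than all unrestricted ones in each of these 3 members, to very different degrees. The members had 266 distinct nearest genes, 0.565% of the 47042 genes considered, so lists of this size can hold few of them. None was among 27 muscle genes or 10 amino acid response genes, 1 was among 14 cell cycle genes (Rb1, nearest to 1 member) and 1 among 12 matrix genes (the collagen chain gene Col5a2, nearest to 2 members).

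Among the WT lists, cover over all members was lowest under restriction. At day 0 WT lists covered 75.8% ± 3.54 (SD, n = 2) of member bases. At day 1 they covered 60.7% ± 2.88 (SD, n = 2) without and 31.1% ± 3.71 (SD, n = 2) with restriction. At day 5 they covered 72.2% ± 2.45 (SD, n = 2) and 33.9% ± 0.463 (SD, n = 2). These values chose the members and were not tested. Genic intervals differed less between media, with 74.1% ± 2.95 and 60.5% ± 5.29 (SD, n = 2 each) at day 1 in control and restricted medium and 84.4% ± 1.55 and 67.8% ± 0.724 (SD, n = 2 each) at day 5.

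**Figure D4:**
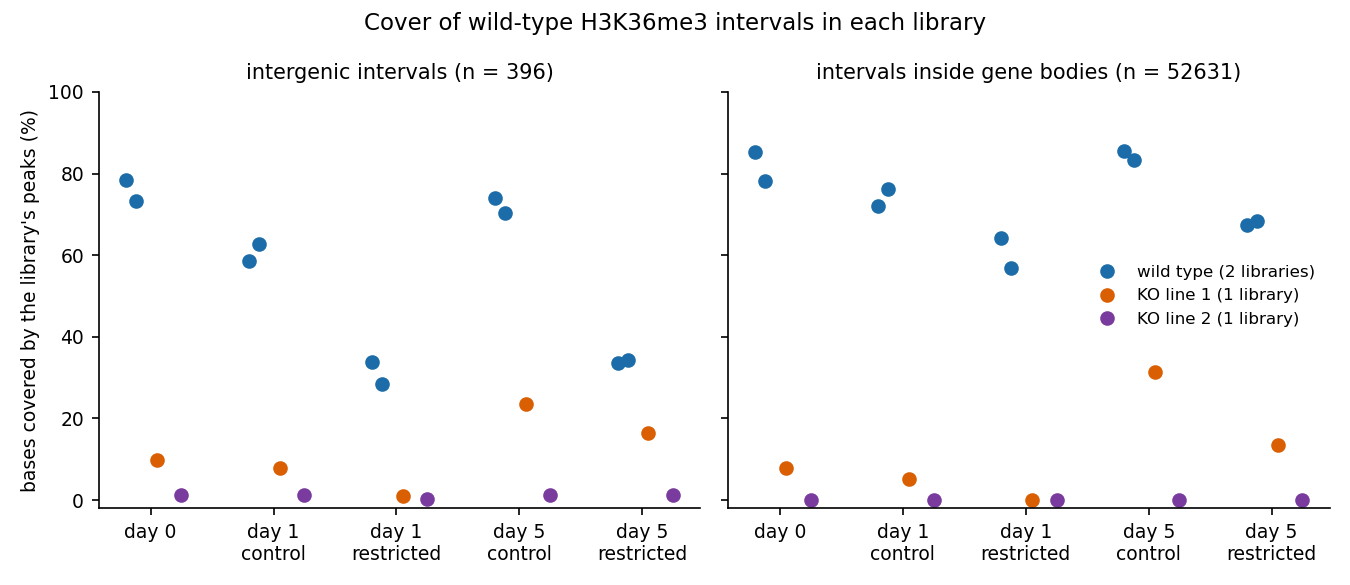
Percent of bases covered by each library's peaks for the 396 intergenic intervals (left) and the 52631 genic intervals (right), 1 point per library, with WT in blue, KO line 1 in orange and KO line 2 in purple. Restricted WT libraries hold 28.5% to 34.2% of the intergenic bases against 58.7% to 78.3% in the other WT libraries, and KO line 2 stays at or under 1.32%.

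A set that the later lists did not choose gave the difference a test, which was added after the data were seen. Intervals were drawn by the same rule from the 2 day 0 libraries alone, 244 in all, and followed at days 1 and 5. At day 1, control libraries covered 71.3% and 75.2% of their bases and restricted libraries 38.8% and 31.7%. At day 5 the values were 68.0% and 65.1% against 34.2% and 34.4%. The mean difference was −35.1 points, with all 4 restricted libraries below all 4 control libraries (exact permutation test within day, two-sided, p = 0.0556, the smallest that 2 against 2 on 2 days allows, adjusted p = 0.0982). The design cannot reach 0.05. The 48394 genic day 0 intervals had 85.3% and 87.6% in control medium against 73.9% and 66.6% under restriction at day 1, and 86.3% and 84.1% against 73.5% and 74.3% at day 5. The intergenic difference less the genic difference was −21.4 points (exact permutation p = 0.0556, again the smallest possible, adjusted p = 0.0982).

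The intergenic and genic day 0 intervals also differed in width and peak strength. Genic intervals were weighted to each of these in turn, not to both at once. The part of width and strength in the difference was not tested. The day 0 intergenic intervals had a median width of 941.5 bp and a median fold enrichment, as deposited by the authors, of 3.23. The genic intervals had medians of 1314 bp and 3.46. With genic intervals weighted to the widths of the intergenic ones this excess was −19.6 points, and weighted to their day 0 fold it was −18.4 points. As the percent of intervals covered to 50% or more it was −11.7 points. It was −14.03 points without the second day 0 library, where 1 library alone draws the intervals. The lists themselves were also shorter under restriction, at 108 to 132 Mb against 138 to 181 Mb in control medium, and the part of list length in the difference was not tested beyond the genic comparison.

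**Figure D5:**
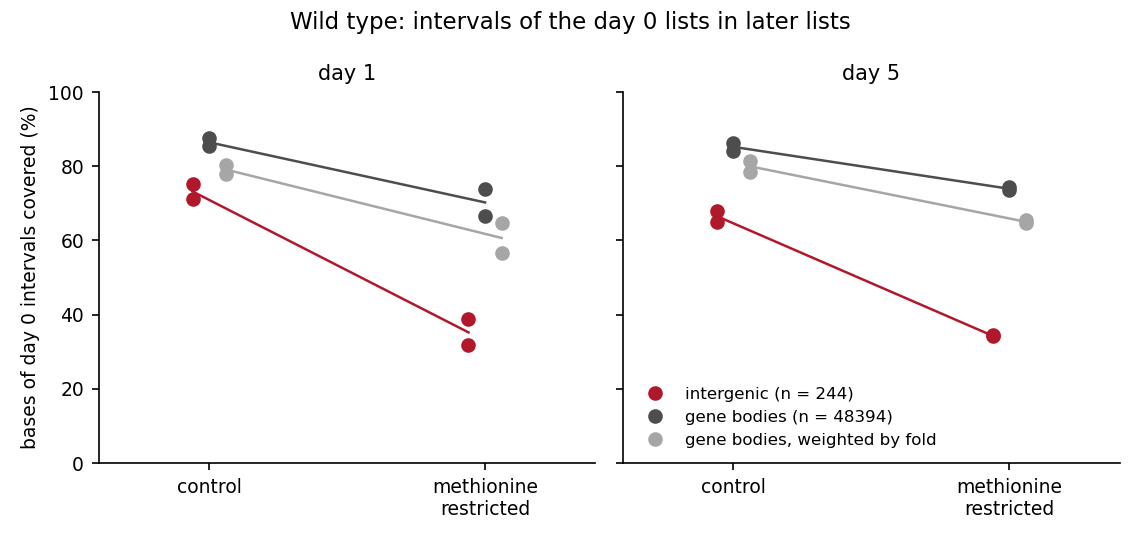
Percent of the bases of day 0 intervals covered in control and restricted WT libraries at day 1 (left) and day 5 (right), 1 point per library, lines joining the group means, for intergenic intervals (red), genic intervals (dark grey) and genic intervals weighted to the fold of the intergenic ones (light grey). Intergenic cover is 65.1% to 75.2% in control medium and 31.7% to 38.8% under restriction, a steeper line than either genic one.

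Counted over the whole intergenic span, WT lists were also shorter under restriction. They held 444.1 kb ± 33.2 (SD, n = 2) in control and 349.3 kb ± 42.3 (SD, n = 2) in restricted medium at day 1. At day 5 they held 669.0 kb ± 84.2 and 314.8 kb ± 21.6 (SD, n = 2 each). The mean ratio was 1.64-fold lower, or −0.72 on the log2 scale, with no overlap on either day (exact permutation p = 0.0556, the smallest possible, adjusted p = 0.0982). As a share of all covered bases, intergenic peaks made up 0.310% ± 0.00855 and 0.297% ± 0.00321 (SD, n = 2 each) at day 1, and 0.382% ± 0.0291 and 0.241% ± 0.0128 (SD, n = 2 each) at day 5, in control and restricted medium. The mean difference in share was −0.0768 points (exact permutation p = 0.0556, the smallest possible, adjusted p = 0.0982). It was −0.0218 points at 10 kb from genes (exact permutation p = 0.333) and −0.348 points at 2 kb (exact permutation p = 0.0556), and with lists shortened to equal length it turned to 0.0253 points (exact permutation p = 0.556). Over the 3 days in control medium the share was 0.385% ± 0.00572 (SD, n = 2) at day 0, both day 1 libraries lay below all libraries of the other days, and day 0 and day 5 overlapped. The test of days did not pass (exact permutation p = 0.2, smallest possible 0.0667, adjusted p = 0.244).

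In 4 of 5 conditions the KO lists held a greater length of intergenic peaks than the WT lists, little of it on the members. WT lists held 299.4 to 728.5 kb of intergenic peaks. KO line 1 held 1529 kb at day 0, 2156 kb and 79.9 kb at day 1 in control and restricted medium, and 4561 kb and 7909 kb at day 5. KO line 2 held 1091 kb, 1661 kb, 2.92 kb, 2839 kb and 4428 kb in the same order. In every condition but restricted day 1, both KO lists exceeded both WT libraries. The mean log2 difference, WT less KO, was −1.05, or 2.08-fold, which did not pass (exact permutation p = 0.255, adjusted p = 0.280). Without the restricted day 1 list of line 2 the log2 difference was −1.53 (exact permutation p = 0.0314), and without both KO lists of that condition −2.44 (exact permutation p = 0.00154). At a distance of 2 kb from genes in place of 5 kb it turned to 0.64 (exact permutation p = 0.511), and at 10 kb it passed at −2.27 (exact permutation p = 0.0368). On the linear scale the difference passed at −2.14 Mb (exact permutation p = 0.00206). It was near 0 with peaks of −log10 q of at least 3, at −0.07 (exact permutation p = 0.916), and at 5 kb from protein-coding genes alone, at −0.09 (exact permutation p = 0.940).

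As a share of covered bases, intergenic peaks made up 0.232% to 0.403% of WT lists, 6.23% to 26.4% of KO line 1 lists and 37.3% to 62.8% of KO line 2 lists. WT and KO lists did not overlap in any condition, and the mean difference was −34.2 points (exact permutation p = 0.000257, the smallest possible, adjusted p = 0.00141). With lists of equal length the difference was −27.1 points (exact permutation p = 0.0154). Little of this KO signal fell on the members: 49.2% to 77.1% of the intergenic bases of WT lists lay in members, by choice of the members, against 1.14% to 5.99% in KO line 1. In KO line 2 the share was 0.146% to 0.576% except in the list of 127 peaks, where it was 33.4% of 2.92 kb. Members made up 0.0537% of the intergenic span, which is below each of these KO shares.

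Most members, like most WT intervals, reached 50% cover in no KO list. This held for 331 of 396 (83.6%, beside 82.4% of all WT intervals), and 285 had 0 bases in every KO list (72%, beside 59.9%). In KO line 1, 23 members (5.81%) reached 50% at day 0, beside 1.52% of all WT intervals, and 22 (5.56%) at day 1 in control medium, beside 1.05%. At day 5 in control medium 55 members (13.9%) did, beside 15.8%, and under restriction 36 (9.09%), beside 6.63%. At day 1 under restriction 12 did (3.03%, beside 0.0703%). In KO line 2 the counts were 13 at day 0 (3.28%, beside 0.0907%), 13 at day 1 in control medium (3.28%, beside 0.0888%), 14 at day 5 in control medium (3.54%, beside 0.126%) and 12 under restriction (3.03%, beside 0.0944%). None reached 50% in the 127-peak list.

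By bases, KO line 1 covered 9.77% of the members at day 0, 7.94% and 0.865% at day 1 in control and restricted medium, and 23.5% and 16.3% at day 5. KO line 2 covered 1.14%, 1.16%, 0.177%, 1.32% and 1.17% in the same order. Line 1 was higher than line 2 in 5 of 5 conditions, by 10.7 points on average (exact sign-flip permutation p = 0.0625, the smallest possible with 5 pairs, adjusted p = 0.0982). The restricted list was lower in 4 of 4 pairs of KO lists, with a mean difference of −3.83 points (exact permutation p = 0.125, the smallest possible with 4 pairs, adjusted p = 0.172). Members were covered 0.529 points more than genic intervals over the 10 KO lists (exact permutation p = 0.680, adjusted p = 0.680), lower in the day 5 control list of line 1 by 7.93 points and higher in the 9 others. Without that list the difference was 1.47 points (exact permutation p = 0.00391), while without the second day 0 WT library it turned to −0.117 points and without the second day 5 control WT library to −0.0843 points (exact permutation p = 1 each), and at 2 kb from genes to −1.97 points (exact permutation p = 0.160). With genic intervals weighted to the members' widths it was 2.80 points (exact permutation p = 0.00195, the smallest possible).

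The members covered in KO line 2 were almost the same few everywhere. A set of 12 members reached 50% in 4 of the 5 line 2 lists, all but the 127-peak list, and 10 of them did so in 9 of the 10 KO lists. They made up 74.8% to 90.8% of the member bases covered in the lists of line 2, on 6.48 kb in all. Since cover in line 2 chose these 12 members, a high share there is partly fixed by the choice. In line 1 they made up 84.2% in the restricted day 1 list and 4.97% to 13.5% in the others. They were 500 to 794 bp wide and 6.77 to 262.4 kb from a gene, with a median distance of 44.5 kb. None lay within 10 kb of another member. With WT and KO lists pooled and the 127-peak list left out, the authors' fold of their peaks had a median rank at the 99.8 percentile of its list. The lowest rank, 1.32, was in a day 0 WT library. In the 127-peak list the ranks ran from 12.6 to 100.

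The farthest member from any gene belonged to this set. That interval, chr5:79042347-79042864, 518 bp wide and 262.4 kb from Gm25756, was covered to 79.9% to 100% in the 10 WT lists. It was covered to 78.6% to 100% in line 1, to 83.2% to 89.4% in 4 lists of line 2 and to 13.1% in the 127-peak list. The interval chr14:113489646-113490173, 172.9 kb from the pseudogene Tpm3-rs7, was covered to 51.7% to 100% in WT, 78.8% to 99.6% in line 1 and 81.2% to 87.9% in the same 4 lists. Those near Gm25169, Gm32985 and Gm5487 were likewise covered in all 20 lists, and the interval near Gm8840 in all but the day 0 WT libraries. The 3 other farthest members, 217.9 to 221.7 kb upstream of Pter, had 100% in both day 5 control WT libraries and at most 24.3% in any other list.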

How the data were processed

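H3K36me3 ChIP-seq with a Drosophila spike-in and 75 nt single-end reads, per the labels' protocols, gave 20 deposited peak lists, 1 per library, on GRCm38 per the submitters' processing notes. The peak caller, its control and its filters are not given in the sources used here. Per the lists' layout, each peak has the authors' score (not used), fold enrichment over an unstated background, and −log10 p and −log10 q as deposited, with a lowest −log10 q of 1.00. Read counts are not used here, so the depth and its precision are unknown. The peak names inside the lists call the KO lines replicates, and the labels were followed.

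Intervals were computed with Python 3.11.15 and numpy 2.4.6 and drawn with matplotlib 3.10.9. Gene bodies came from RefSeq on GRCm38.p6 (47042 genes on chromosomes 1 to 19), and strand from its promoter and microRNA tables. Interval code was tested on simulated data, with 0 differences in 200 sets. An interval counts as present in a KO list at 50% of its bases. Tests were two-sided exact permutation tests over libraries, with Benjamini-Hochberg adjustment over 11 tests, 3 of them added after the data were seen. WT cover chose the members and was not tested. Regions named are the 8 widest, the 5 farthest from genes and 6 in most KO lists. These are the widest 6 of 10 members that tie at 9 KO lists. Also named are the 4 widest of day 5 control alone and of day 0 alone, and those of the 5 genes nearest to most members. The microRNA loci, the Rb1 locus and the farther Ect2 members were chosen after their values were seen. The members and lists were chosen with earlier results of these data known. Alternatives were stricter peaks, other distances, widths and gene sets, lists of equal length, weighted genic sets, a replicate block and each library left out. The input library was not analysed here, and 1 region that the naming rule picks is not reported here. Replicate numbers of WT libraries did not pair them.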

Additional observations from a re-analysis of the deposited data

Results flagged for a closer look

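The change in intergenic peak length under methionine restriction went opposite ways between lines and days. At day 5 the log2 change was 0.79 in KO line 1 and 0.64 in KO line 2, higher under restriction, against a mean of −1.08 in WT. At day 1 it was −4.75 in KO line 1 and −9.15 in KO line 2, from the restricted lists of 791 and 127 peaks. The KO values rest on 1 library per condition and the difference between lines and between days was not tested. Chromosome X was outside the chosen chromosomes and also held intergenic peaks. The same rule found 10 intervals there, 10898 bp in all, covered to 33.0% to 85.9% in WT lists, 9.30% to 44.6% in KO line 1 and 0.505% to 9.16% in KO line 2.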

How the results depend on the processing

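Of 252 values under alternative settings, 227 kept the direction and side of the 0.05 threshold, or for counts stayed within 1.5 times. Of these, 127 come from tests that cannot reach 0.05 with this number of libraries, so that only their direction bears on stability. The number of intergenic WT intervals was 158 at −log10 q of at least 3, 141 at 10 kb and 1523 at 2 kb from genes, 983 at 5 kb from protein-coding genes alone, 174 at 1000 bp or more and 206 in at least 2 WT groups, and 433 to 564 without 1 WT library. The log2 length difference between WT and KO, −1.05 and not past the threshold, passed at −2.27 at 10 kb, turned to 0.64 at 2 kb, and passed at −2.14 Mb on the linear scale and −2.44 without both KO lists of day 1 restriction. It was −0.07 at −log10 q of at least 3 and −0.09 with protein-coding genes alone, and ranged from −1.53 to −0.58 without 1 library. The length under restriction in WT was −1.49 on the log2 scale at −log10 q of at least 3. The share under restriction in WT was −0.0218 points at 10 kb, −0.348 at 2 kb and −0.289 with protein-coding genes alone, and turned to 0.0253 at equal list length. The cover of day 0 intervals was −23.4 points as percent of intervals with any base covered, and its excess over genic intervals −10.9 points. Line 1 exceeded line 2 by 4.85 points as percent of members at least 50% covered and by 6.95 at 2 kb. The change in share over days was −0.00325 points, turned to 0.0201 at 10 kb and ranged from −0.0239 to 0.0173 without 1 library. This change was larger at 2 kb, at −0.175 points, and with protein-coding genes alone, at −0.101. At −log10 q of at least 3 it was −0.0422 and at equal list length −0.0410. Cover in KO lists, intergenic less genic, passed the 0.05 threshold under some settings. It passed at 3.34 points with −log10 q of at least 3, 3.22 at 10 kb and 2.13 with protein-coding genes alone. It also passed at 2.37 as percent of intervals at least 50% covered and at 2.80 weighted by width. At 2 kb it was −1.97 and did not pass, and without 1 library it ranged from −0.117 to 1.47. The WT excess on the downstream side was 4.73 points at 10 kb or more. The causes were not tested. With the WT replicate number as a replicate block, which the labels do not tie to a shared culture or day (correlations of deviations −0.165 to 0.0529), the length under restriction stayed at −0.72 and the day 0 interval cover at −35.1 points, both with exact permutation p = 0.125, the smallest possible, and it changed no call. Peak lists give no depth, so a missing peak is not an absent mark.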
